A study of Mus musculus with 16 samples.

Results

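Sc5d and genes of cholesterol synthesis were described in mouse rotator cuff muscle before and after a model of tendon tear. The set holds 7 genes chosen by name: Sc5d, Hmgcs1, Sqle, Cyp51, Fdps, Fdft1 and Srebf2. Sc5d was selected for its lower counts in every operated sample of the strain C57BL/6J, so its values there are a description and carry no test. Of the 7 genes, 6 were among the 11710 genes of the count table and passed the filter on low counts, and Fdps was not analysed here. Messenger RNA was sequenced in 16 samples, 4 in each of 4 groups. The groups were unoperated C57BL/6J mice (BL6), BL6 mice after tenectomy (removal of tendon) together with denervation, unoperated MRL/MpJ mice (MRL), and MRL mice after the same surgery. BL6 is widely used as a reference, and MRL is noted for closing ear wounds unusually well. The surgery combined both injuries in every operated sample, so an effect of unloading and one of nerve loss cannot be told apart. The muscle is the infraspinatus in the series description and the supraspinatus in the sample labels. Age, sex and the time since surgery are not given in the sources used here.

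Cholesterol is built from acetyl-CoA in the endoplasmic reticulum. Hmgcs1 acts early in the mevalonate route, Fdft1 (squalene synthase) commits its product to sterols, Sqle and Lss make the first sterol ring, and Cyp51 and later enzymes trim it. Sc5d, the sterol C5-desaturase, acts next to last and hands its product to Dhcr7. The transcription factor SREBP-2, made from Srebf2, turns on nearly all of these genes together when membranes of the endoplasmic reticulum are low in cholesterol. Skeletal muscle uses the route for the sterols of its own membranes and for the prenyl and ubiquinone side branches.

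Sc5d (ENSMUSG00000032018) lies on chromosome 9 from 42251595 to 42264256 on the minus strand of GRCm38. Hmgcs1 (ENSMUSG00000093930) lies on chromosome 13 from 119690379 to 119708260 on the plus strand. The 250 bases before the RefSeq start of both genes are shown, since SREBP-2 and the factor NF-Y act on promoters of this pathway. The pair shows a window without and a window with a match to the letters searched for the sterol regulatory element. Both windows are from GRCm38.p6, read 5′ to 3′ on the strand of the gene, and neither reaches an exon of GENCODE M21. Capitals mark CCAAT (the NF-Y motif, or its complement ATTGG) and the sterol regulatory element TCACNCCAC, searched on both strands, with no overlap between the marked matches.
Sc5d, chr9:42264301-42264550, minus strand: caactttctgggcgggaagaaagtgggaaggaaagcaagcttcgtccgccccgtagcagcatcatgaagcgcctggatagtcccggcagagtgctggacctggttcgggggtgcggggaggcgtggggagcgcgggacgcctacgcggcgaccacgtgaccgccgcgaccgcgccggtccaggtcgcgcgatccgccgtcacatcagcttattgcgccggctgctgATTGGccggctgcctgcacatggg
Hmgcs1, chr13:119690101-119690350, plus strand: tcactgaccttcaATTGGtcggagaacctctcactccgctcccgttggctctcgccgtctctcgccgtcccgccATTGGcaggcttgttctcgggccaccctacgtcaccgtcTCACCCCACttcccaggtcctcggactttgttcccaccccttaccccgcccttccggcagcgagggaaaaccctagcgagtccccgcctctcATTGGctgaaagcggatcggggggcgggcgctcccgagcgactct
The Sc5d window held 1 ATTGG, 24 to 20 bases before the start, and no match to the sterol regulatory element. It also held 1 CACGTG (E-box), 98 to 93 bases before the start. The Hmgcs1 window held 3 ATTGG and 1 sterol regulatory element, 137 to 129 bases before the start. The windows of Cyp51 and Srebf2 each held 1 CCAAT and no match to the sterol regulatory element. Of the 18 listed enzymes of the pathway 15 had a RefSeq window, and 14 of these held CCAAT. In windows, that was 77.8% of the 18 that belong to the enzymes, against 33.8% of all 32851 promoters. The sterol regulatory element was found in 5.56% of the enzymes' windows, which is Hmgcs1 alone, against 1.05% of all promoters. These letters are matches in a window and do not show that a factor binds there. The search took only the letters given, so a site that differs from them would be missed.

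Levels are given in CPM (counts per 1000000), with library sizes scaled by trimmed mean of M values (TMM). Sc5d was measured at 35.4, 36.9, 38.6 and 43.5 CPM in unoperated BL6 and at 13.4, 16.4, 15.1 and 14.98 CPM in operated BL6. It was measured at 21.3, 24.8, 25.4 and 23.3 CPM in unoperated MRL and at 13.8, 14.1, 12.8 and 15.4 CPM in operated MRL. Every operated sample lay under every unoperated sample of either strain, and the operated samples of both strains overlapped.

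The order of the 4 groups, from low to high, was operated MRL at 14.02 ± 1.06 CPM (SD, n = 4), operated BL6 at 14.98 ± 1.21, unoperated MRL at 23.7 ± 1.84 and unoperated BL6 at 38.6 ± 3.51. The lowest pair overlapped, and each further step was larger than the spread within the groups on either side. In BL6 the operated level was lower by 1.36 ± 0.10 on the log2 scale (SE), or 2.58-fold. That contrast chose the gene. In MRL, whose samples were not used in the choice, Sc5d fell by 0.76 ± 0.09 on the log2 scale (SE), or 1.69-fold (adjusted p = 0.000267 by edgeR's quasi-likelihood test with Benjamini-Hochberg adjustment, lower in 4 of 4 samples). Among all 11709 genes tested, 45% passed in this comparison, 22.3% higher and 22.7% lower, and the median log2 fold change was 0.01. The spread behind this adjusted p was estimated over all 16 samples, BL6 included. The call in MRL also held with only the MRL groups in the fit. It held in each of the 16 fits that left out 1 sample, with log2 fold changes of -0.81 to -0.71. In the authors' deposited table the log2 fold change of Sc5d in MRL was -0.78. That table also gave lower values in MRL for Hmgcs1 (-0.17) and Fdft1 (-1.03), as here. For Sqle (0.12), Cyp51 (0.07) and Srebf2 (0.08) its sign in MRL was opposite to the values below, which did not pass.

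Unoperated MRL muscle held less Sc5d than unoperated BL6, by 0.70 ± 0.09 on the log2 scale (SE), with no overlap. After surgery the strains differed by 0.09 ± 0.10 on that scale, with MRL lower and the samples overlapping. The effect of surgery was thus 0.61 ± 0.13 log2 units smaller in MRL. These 3 values contain the BL6 samples by which Sc5d was selected and are given with no test. A stretch of 307 bases of Sc5d is 91.9% identical to Gm31520, which is not in the count table, so some reads there may have more than one source.

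**Figure D1:**
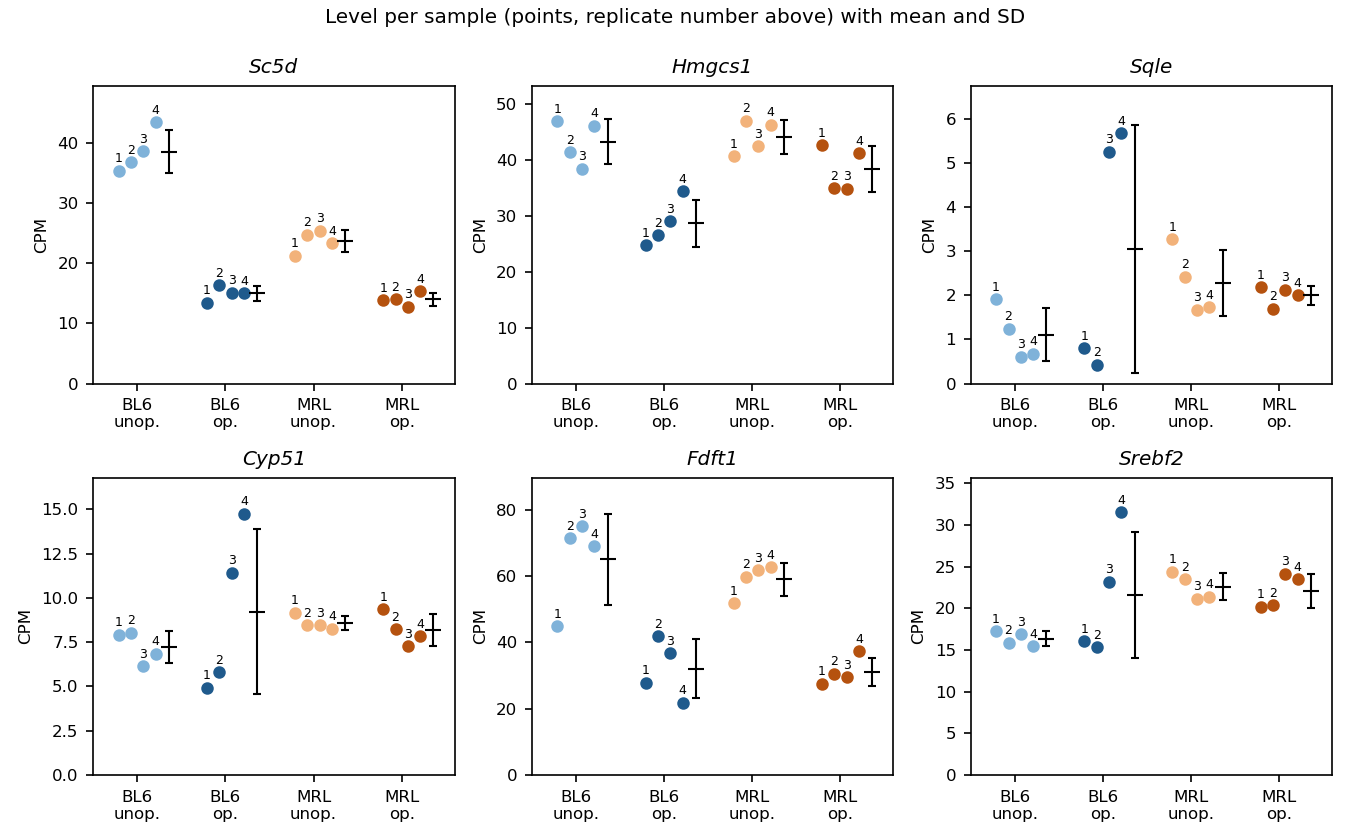
Level of the 6 analysed genes in CPM (y axis, linear, from 0) in each of the 16 samples (points, with the replicate number above), with the mean and SD of the 4 samples of each group beside them. Sc5d sat between 12.8 and 16.4 CPM in all 8 operated samples, while Sqle, Cyp51 and Srebf2 were split within operated BL6, with replicates 3 and 4 above replicates 1 and 2.

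Hmgcs1, the cytosolic HMG-CoA synthase, makes HMG-CoA, an early intermediate of the mevalonate route. It was measured at 47.0, 41.4, 38.5 and 46.1 CPM in unoperated BL6 and at 24.8, 26.5, 29.0 and 34.4 CPM in operated BL6, with no overlap. In MRL it was measured at 40.7, 47.0, 42.4 and 46.3 CPM without surgery and at 42.6, 34.9, 34.8 and 41.2 CPM after it, and these groups overlapped. The log2 fold change was -0.59 ± 0.11 (SE) in BL6, as a description, and -0.20 ± 0.11 in MRL, where it did not pass the test (adjusted p = 0.15). The difference between these effects was 0.39 ± 0.16 and did not pass (adjusted p = 0.262). Among operated samples Hmgcs1 was higher in MRL than in BL6 by 0.42 ± 0.11 on the log2 scale (adjusted p = 0.0214 by edgeR), with every MRL sample above every BL6 sample. That call was lost in 4 of the 16 fits without 1 sample (operated BL6 replicates 1 and 3, operated MRL replicates 1 and 4), where the adjusted p reached 0.07. It was also lost with library totals alone as the scale (adjusted p = 0.127) and with only the groups compared in the fit (adjusted p = 0.142). Hmgcs1 shares 557 exon bases with Gm48342 on the other strand, and the use of strand in counting is not stated.

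Fdft1, squalene synthase, takes the last substrate that sterols share with the isoprenoid branches. It was measured at 44.8, 71.3, 75.002 and 69.0 CPM in unoperated BL6 and at 27.9, 41.8, 36.8 and 21.9 CPM in operated BL6. In MRL it was measured at 51.8, 59.9, 61.7 and 62.8 CPM without surgery and at 27.5, 30.5, 29.4 and 37.2 CPM after it. No operated sample reached an unoperated sample of its own strain. Fdft1 fell in MRL by 0.92 ± 0.19 on the log2 scale (SE), or 1.89-fold (adjusted p = 0.00258 by edgeR), and the call held without any 1 sample (adjusted p at most 0.0109). In BL6 it was lower by 1.02 ± 0.19 log2 units, as a description. The effects in the strains differed by 0.10 ± 0.27 log2 units, with a 95% interval from -0.48 to 0.68 (adjusted p = 0.862). Fdft1 shares 774 exon bases with Ctsb, a lysosomal protease on the other strand, and if strand was ignored reads there cannot be told apart. Ctsb itself had log2 fold changes of 0.13 ± 0.12 in BL6 and 0.10 ± 0.12 in MRL and passed in neither (adjusted p = 0.344 and 0.506). A further 1249 bases are 97.4% identical to Gm6781, which is not in the count table.

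Sqle, squalene epoxidase, adds the oxygen needed for ring closure and was the lowest of the 6 genes. It was measured at 1.92, 1.24, 0.608 and 0.676 CPM in unoperated BL6 and at 0.807, 0.426, 5.26 and 5.69 CPM in operated BL6. These are 11 to 200 counts in the operated BL6 samples, where replicates 1 and 2 lay within the unoperated range or under it and replicates 3 and 4 above it. In MRL it was measured at 3.27, 2.43, 1.68 and 1.73 CPM without surgery and at 2.19, 1.70, 2.13 and 2.0005 CPM after it. Its log2 fold change in MRL was -0.18 ± 0.60 (SE, adjusted p = 0.816) and its difference between the strains -1.65 ± 0.86 (adjusted p = 0.352). A stretch of 224 bases of Sqle is 92.9% identical to the other strand of Sdccag8.

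Cyp51, lanosterol demethylase, was measured at 7.93, 8.04, 6.16 and 6.85 CPM in unoperated BL6 and at 4.92, 5.81, 11.4 and 14.8 CPM in operated BL6. In MRL it was measured at 9.17, 8.46, 8.45 and 8.26 CPM without surgery and at 9.38, 8.22, 7.28 and 7.84 CPM after it. Operated BL6 replicates 1 and 2 lay under all other samples and replicates 3 and 4 above them. In MRL the log2 fold change was -0.07 ± 0.26 (SE, adjusted p = 0.835).

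Srebf2, the gene of SREBP-2, was measured at 17.3, 15.9, 16.9 and 15.5 CPM in unoperated BL6 and at 16.1, 15.4, 23.2 and 31.6 CPM in operated BL6. In MRL it was measured at 24.4, 23.5, 21.2 and 21.4 CPM without surgery and at 20.2, 20.4, 24.2 and 23.5 CPM after it. Its 4 unoperated MRL samples lay above its 4 unoperated BL6 samples, by 0.47 ± 0.17 on the log2 scale (SE), which did not pass the test (adjusted p = 0.11). This difference passed without operated BL6 replicate 4 in the fit (log2 difference 0.46, adjusted p = 0.0202) and with only the groups compared in the fit (0.47, adjusted p = 0.00222). In MRL surgery left a log2 fold change of -0.03 ± 0.17 (adjusted p = 0.884).

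The log2 fold changes of the surgery in BL6 were 1.47 ± 0.62 (SE) for Sqle, 0.35 ± 0.26 for Cyp51 and 0.40 ± 0.17 for Srebf2, and in each of these genes the groups overlapped. These means rest on replicates 3 and 4: without replicate 4 the values were 0.97, 0.02 and 0.15. In BL6, the contrast by which Sc5d was chosen, 4 of the 6 genes had an adjusted p under 0.05 (1 higher, 3 lower), where 67.9% of all genes did, 35.1% higher and 32.8% lower, and nothing is read from that count. In MRL 2 of the 6 passed, Sc5d and Fdft1, both lower, which is no more than the 45% of all genes that passed there. The median log2 fold change of the 6 was -0.12 in BL6 and -0.19 in MRL, against 0.04 and 0.01 over all genes.

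**Figure D2:**
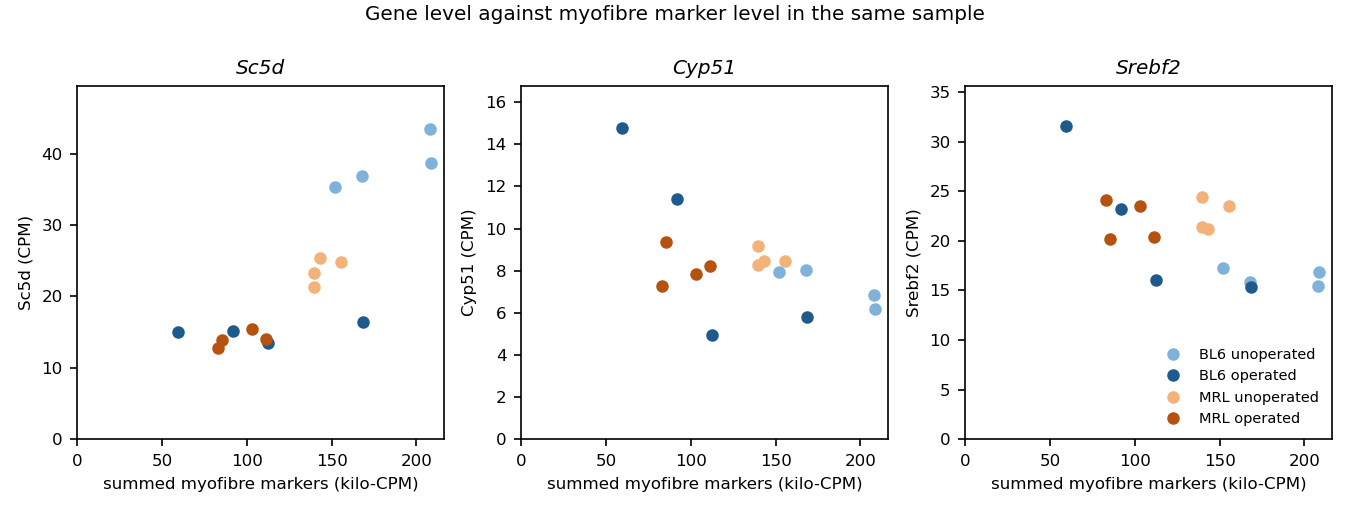
Level of Sc5d, Cyp51 and Srebf2 in CPM (y axes) against the summed CPM of 9 myofibre markers in the same sample (x axes, kilo-CPM), with 1 point per sample and colour by group. Within operated BL6 the sample with the lowest marker sum had the highest Cyp51 (14.8 CPM) and Srebf2 (31.6 CPM), while Sc5d stayed between 13.4 and 16.4 CPM.

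The sampled tissue held more than muscle fibres, and the levels of several cell type markers moved with the surgery. The 9 myofibre markers, fibre proteins such as Ckm and Ttn, summed to 152002 to 208784 CPM in unoperated BL6, 59526 to 168665 in operated BL6, 139438 to 155330 in unoperated MRL and 82834 to 111500 in operated MRL. Of these 9 markers 5 were lower after surgery in BL6 and 3 in MRL, where 32.8% and 22.7% of all genes were lower. In operated BL6 the sums of replicates 1 to 4 were 112544, 168665, 91937 and 59526 CPM. Replicate 4 had 5766 CPM of summed fibroblast markers, where the other 3 had 810 to 1535, and 582 CPM of macrophage markers, where the other 3 had 89.3 to 167. Within operated BL6 the samples with high Sqle, Cyp51 and Srebf2 were those with the lowest myofibre sums. Operated MRL replicates 1 and 3 had lower sums still than operated BL6 replicate 3, at 85401 and 82834 CPM. There Cyp51 was at 9.38 and 7.28 CPM and Sqle at 2.19 and 2.13 CPM. The part of tissue makeup in these levels was not tested. In such bulk samples fewer cells of a type and less RNA per cell cannot be told apart.

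The counts of markers that were higher stand beside 35.1% of all genes in BL6 and 22.3% in MRL. All 7 analysed adipocyte markers were higher after surgery in both strains. Their sums were 251 to 335 CPM in unoperated and 1357 to 2346 CPM in operated BL6. In MRL they were 294 to 417 and 1469 to 2042 CPM. Of 8 analysed Schwann cell markers 8 were higher in BL6, with sums of 91.4 to 119 CPM unoperated and 233 to 574 operated. In MRL 5 were higher (77.7 to 144 and 133 to 387 CPM). Endothelial markers were higher for 4 of 5 in BL6 (268 to 368 and 548 to 695 CPM) and 5 of 5 in MRL (203 to 288 and 292 to 726). Macrophage markers passed for 5 of 8 in BL6, all higher (38.7 to 149 and 89.3 to 582 CPM). In MRL edgeR called 0 of these 8, with 0 at an unadjusted p under 0.05 (78.1 to 360 and 137 to 262 CPM). DESeq2 also called 0 and gave no adjusted p for 2 of them. Unoperated MRL replicate 1 had the 360 CPM, where the other 3 had 78.1 to 106, all under the 4 operated samples. Fibroblast markers passed for 4 of 7 in BL6, all higher (554 to 1324 and 810 to 5766 CPM). In MRL edgeR called 0 of these 7, with 1 at an unadjusted p under 0.05 and 1 called by DESeq2 (1151 to 1995 and 1476 to 3034 CPM). Lep, of 8 listed adipocyte markers, and Egr2, of 9 listed Schwann cell markers, were not analysed here. No analysed marker was at 0 in any sample. The count table held no gene with a mean under 1.05 CPM, so a silent marker could not appear there.

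Sc5d was placed among the other enzymes next. Of 18 listed enzymes between acetyl-CoA and cholesterol 16 were analysed; Fdps and Idi1 were not analysed here. In MRL 6 of the 16 passed after surgery, 2 higher and 4 lower, with a median log2 fold change of -0.11. The 11 enzymes outside the chosen set gave 7 calls in BL6 (5 higher, 2 lower) and 4 in MRL (2 higher, 2 lower), with medians of 0.24 and 0.099. Against the 67.9% and 45% of all genes that passed, these counts are near or under the background. With the chosen genes included, 11 of the 16 had an adjusted p under 0.05 in BL6 (6 higher, 5 lower), and 4 of these 11 were chosen genes, so nothing is read from that count. The enzymes that passed outside the chosen set did not move in a single direction.

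The falls other than those of the chosen genes were in Hsd17b7, Lss and Dhcr7. Hsd17b7, which reduces the keto group left by demethylation, was measured at 8.38, 6.85, 8.22 and 8.39 CPM in unoperated BL6 and at 2.50, 3.33, 2.40 and 2.70 CPM in operated BL6. In MRL it went from 6.17, 5.88, 6.22 and 4.55 CPM to 3.04, 2.57, 2.95 and 3.71 CPM. It fell by 1.54 ± 0.16 on the log2 scale in BL6 (SE, adjusted p = 9.9e-06 by edgeR) and by 0.89 ± 0.16 in MRL (adjusted p = 0.00133), with no overlap in either strain. The difference between the strains was 0.65 ± 0.23 and did not pass (adjusted p = 0.212). Dhcr7, which turns the product of Sc5d into cholesterol, was measured at 13.7, 13.4, 12.1 and 14.03 CPM in unoperated MRL and at 9.83, 9.61, 9.30 and 8.66 CPM in operated MRL. It fell there by 0.51 ± 0.12 on the log2 scale (adjusted p = 0.00421 by edgeR), and the call was lost with library totals alone (adjusted p = 0.0746). In BL6 its log2 fold change was -0.21 ± 0.12 (adjusted p = 0.128), and it passed only without operated replicate 4 (-0.30, adjusted p = 0.0332). Lss fell in BL6 by 0.36 ± 0.13 on the log2 scale (adjusted p = 0.0262 by edgeR). That call was lost with library totals alone (adjusted p = 0.318), with genes of at least 5 CPM (adjusted p = 0.0629) and without unoperated BL6 replicate 2 or 4 or operated BL6 replicate 1 (adjusted p at most 0.0782).

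The rises other than those of the chosen genes were in Mvd, Msmo1, Ebp, Tm7sf2 and Acat2. Mvd, which decarboxylates mevalonate diphosphate, was measured at 8.11, 8.88, 9.70 and 8.42 CPM in unoperated BL6 and at 30.7, 15.3, 25.2 and 18.8 CPM in operated BL6. In MRL it was measured at 18.3, 17.6, 11.7 and 21.8 CPM without surgery and at 19.2, 14.2, 15.6 and 11.8 CPM after it. It rose in BL6 by 1.36 ± 0.22 on the log2 scale (SE, adjusted p = 9.86e-05 by edgeR), with no overlap, and had a log2 fold change of -0.20 ± 0.21 in MRL (adjusted p = 0.458). Ebp, the sterol isomerase just before Sc5d, rose in BL6 by 0.59 ± 0.13 log2 units (adjusted p = 0.000867), from 8.64 to 10.9 CPM without surgery to 12.8 to 18.03 CPM after it. In MRL its log2 fold change of 0.31 ± 0.13 did not pass (adjusted p = 0.053). It passed without unoperated MRL replicate 1 (0.39, adjusted p = 0.0318), operated MRL replicate 4 (0.38, adjusted p = 0.0269) or operated BL6 replicate 4 (0.32, adjusted p = 0.0244), and with genes of at least 5 CPM (0.36, adjusted p = 0.0427). Thus in BL6 the isomerase before Sc5d was higher while Sc5d itself was lower.

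Msmo1, a sterol methyl oxidase, rose in BL6 by 0.91 ± 0.25 log2 units (adjusted p = 0.00501 by edgeR), although its groups overlapped. Its operated BL6 values were 6.46, 5.23, 11.5 and 13.2 CPM, so replicates 3 and 4 were again the high samples. Tm7sf2, a sterol reductase, rose by 0.49 ± 0.14 in BL6 (adjusted p = 0.00586) and by 0.42 ± 0.14 in MRL (adjusted p = 0.0231). Its call in MRL was lost without unoperated replicate 3 or operated replicate 2 or 3 (adjusted p at most 0.0912). Tm7sf2 shares 532 exon bases with Vps51 on the same strand, so its counts are uncertain. Acat2, the first thiolase, rose by 0.73 ± 0.30 in BL6 (adjusted p = 0.0397) and by 0.78 ± 0.30 in MRL (adjusted p = 0.0444). Both Acat2 calls were fragile: they were lost in 5 and 10 of the 16 fits without 1 sample, and without operated BL6 replicate 4 the BL6 value was 0.30 (adjusted p = 0.283). Mvk, Pmvk and Nsdhl did not pass in either strain.

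**Figure D3:**
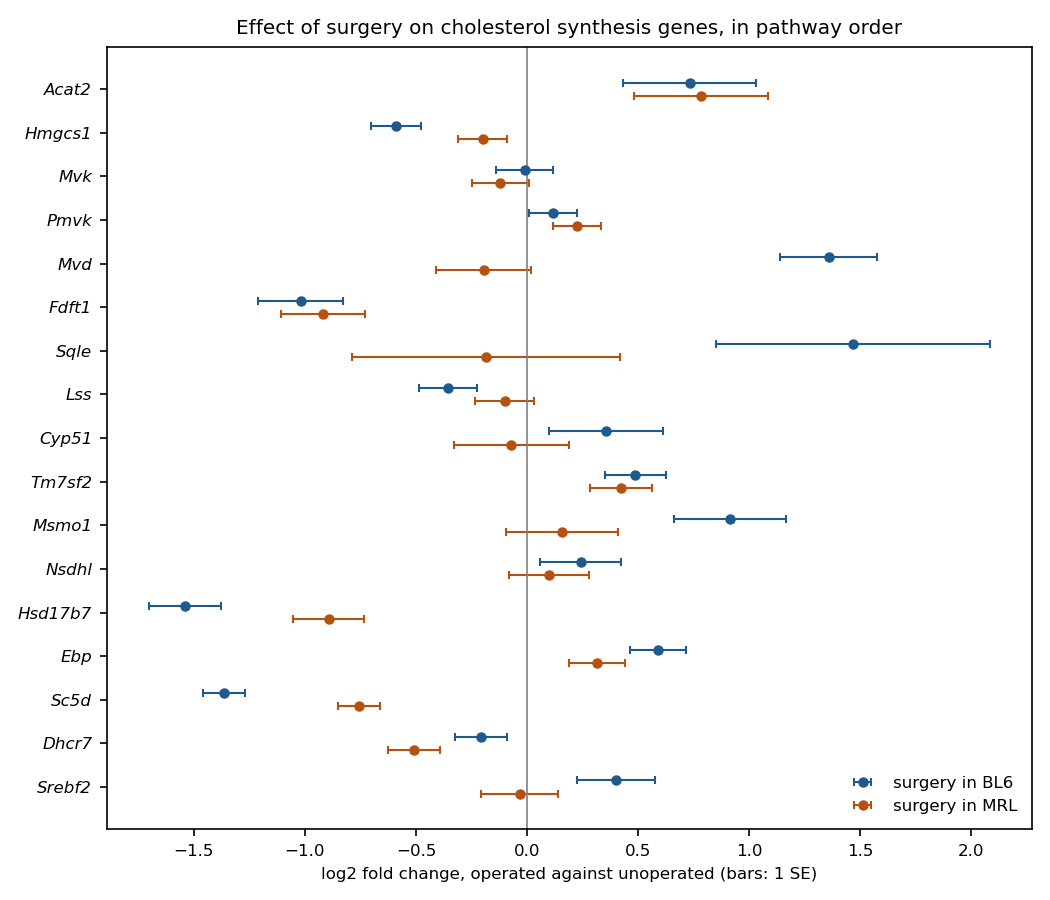
Log2 fold change of operated against unoperated muscle (x axis, bars of 1 SE) for the 16 analysed enzymes in pathway order and Srebf2 (y axis), in BL6 and in MRL. Sc5d, Fdft1 and Hsd17b7 stand left of 0 in both strains, and Mvd stands at 1.36 in BL6 and -0.20 in MRL.

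**Figure D4:**
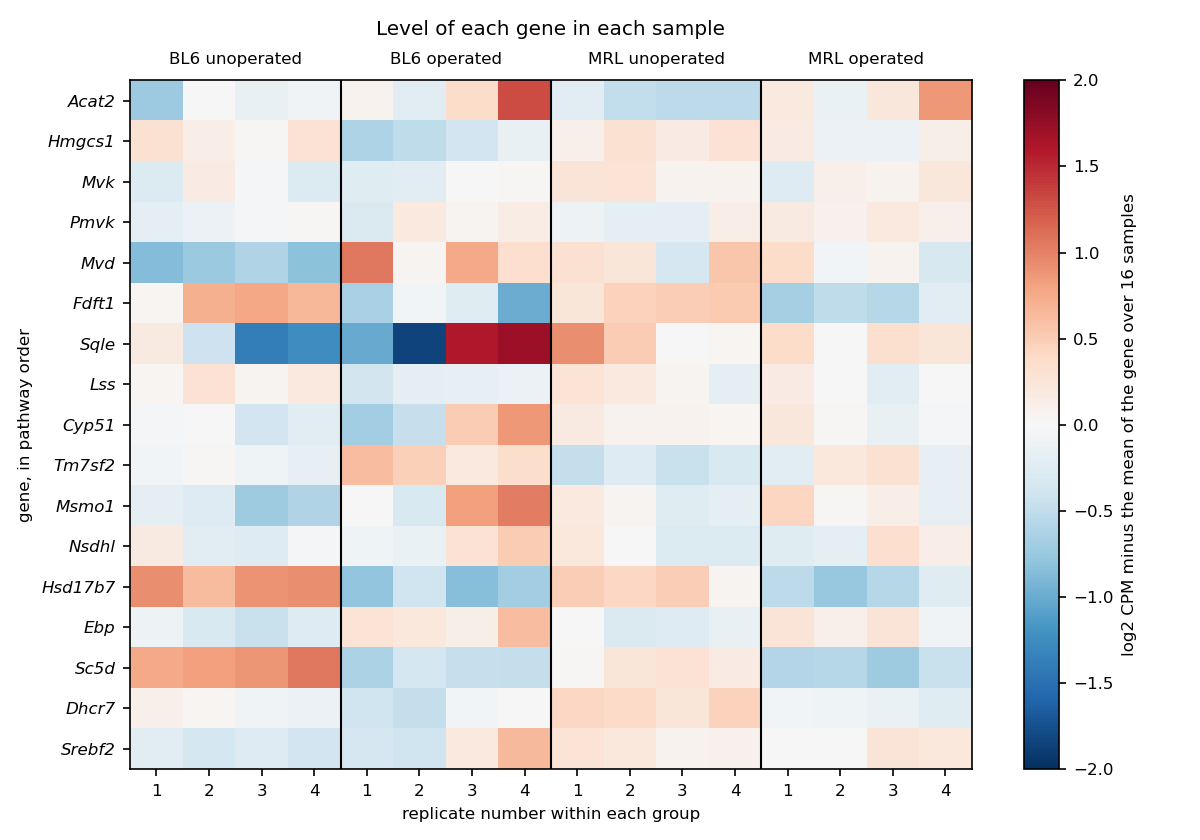
Heat map of log2 CPM minus the mean of the gene over the 16 samples (colour, from -2 to 2) for the same 17 genes in pathway order (rows) and each sample by group and replicate number (columns). Sc5d and Hsd17b7 are above their means in all 4 unoperated BL6 samples and below them in all 4 operated ones, while Sqle, Cyp51 and Msmo1 are highest in operated BL6 replicates 3 and 4.

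Tests of these enzymes between the strains are given beside the share of all genes that passed. The effect of surgery differed between the strains for 29 of all genes, or 0.248% (edgeR, adjusted p under 0.05), and 1843 had an unadjusted p under 0.05. Among the 15 enzymes other than Sc5d 1 passed, Mvd, with a difference of -1.55 ± 0.30 log2 units (SE, MRL effect minus BL6 effect, adjusted p = 0.0461). That call was lost in 13 of the 16 fits without 1 sample, where the adjusted p ranged from 0.0208 to 0.119. It was also lost with library totals alone (adjusted p = 0.0633), with the mitochondrial genes left out (0.0541) and with the replicate number as a block (0.0953), and was kept by DESeq2 (0.000587). For the chosen genes other than Sc5d the adjusted p of this difference was 0.262 or higher.

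Without surgery 2 of the 15 enzymes other than Sc5d passed between the strains, Mvd and Dhcr7, against 10.4% of all genes. Mvd was higher in MRL by 0.99 ± 0.22 log2 units (SE, adjusted p = 0.00655 by edgeR), with no overlap. Dhcr7 was higher in MRL by 0.39 ± 0.12 log2 units (adjusted p = 0.0409). The Dhcr7 call was lost in 10 of the 16 fits without 1 sample (adjusted p at most 0.129). It was also lost with library totals alone (adjusted p = 0.0992), the mitochondrial genes left out (0.0537), genes of at least 5 CPM (0.0607) and the replicate block (0.0745). After surgery 1 of these 15 passed, Hmgcs1, against 12.9% of all genes.

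Levels of different genes were compared per kilobase of exon. In unoperated BL6 Sc5d ranked 4 among these 17 genes at 7.93 ± 0.72 CPM per kb (SD, n = 4), behind Fdft1 at 15.4 ± 3.24, Pmvk at 9.74 ± 0.58 and Hmgcs1 at 9.41 ± 0.87. In unoperated MRL it ranked 6, at 4.87 ± 0.38 CPM per kb. After surgery it was 3.08 ± 0.25 CPM per kb in BL6 and 2.88 ± 0.22 in MRL, near Nsdhl and Srebf2 in both, from which it did not differ beyond the spread. Sqle was lowest of the 17 in unoperated BL6, at 0.201 ± 0.11 CPM per kb, and in both MRL groups.

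The regulators of the SREBP pathway and its further targets were described from a list of 11 genes, of which 10 were analysed; Hnf4a was not analysed here. After surgery 5 passed in BL6, 2 higher and 3 lower, and 4 in MRL, 1 higher and 3 lower, with median log2 fold changes of -0.063 and -0.17. Over all genes 67.9% and 45% passed, so neither count is above the background. Insig2, which holds SREBP in the endoplasmic reticulum, fell by 0.86 ± 0.16 log2 units in BL6 (SE, adjusted p = 0.000288 by edgeR) and by 0.56 ± 0.16 in MRL (adjusted p = 0.0116). Lpin1, a phosphatidate phosphatase and SREBP target, fell by 1.54 ± 0.32 and 1.43 ± 0.32 log2 units (adjusted p = 0.000628 and 0.00346). Mbtps2, a protease that frees SREBP, fell in BL6 by 0.85 ± 0.13 (adjusted p = 9.23e-05) and had a log2 fold change of -0.33 in MRL (adjusted p = 0.0519). Its MRL value passed with DESeq2 (adjusted p = 0.0361), with DESeq2 size factors (0.0435), with the mitochondrial genes left out (0.0401) and in 4 fits without 1 sample, with operated MRL replicate 4 giving the lowest adjusted p when left out (0.00637). Mylip, a ubiquitin ligase and target of the liver X receptors, rose by 0.70 ± 0.19 in BL6 (adjusted p = 0.00423) and by 0.57 ± 0.19 in MRL (adjusted p = 0.0241). The Mylip call in MRL was lost without unoperated replicate 2, 3 or 4 or operated replicate 1 or 3 (adjusted p at most 0.0923). Stard4 rose in BL6 by 0.98 log2 units (adjusted p = 0.000763 by DESeq2), although its groups overlapped. Its edgeR call there held without any 1 sample (adjusted p at most 0.0164). In MRL its means were 7.13 CPM without surgery and 11.1 CPM after it, and edgeR did not call it. Scap, Insig1 and Mbtps1 passed in neither strain.

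Of the efflux, storage and transport genes, 12 analysed of 13, 10 passed in BL6 (8 higher, 2 lower) and 6 in MRL (5 higher, 1 lower), with median log2 fold changes of 0.85 and 0.51. Over all genes 67.9% passed in BL6, 35.1% higher, and 45% in MRL, 22.3% higher, with medians of 0.04 and 0.01. Ch25h was not analysed here. Scarb1, a lipoprotein receptor, rose by 1.15 ± 0.22 in BL6 (SE, adjusted p = 0.00032 by edgeR) and by 1.07 ± 0.22 in MRL (adjusted p = 0.0024). Apoe, the main apolipoprotein of tissue cholesterol transport, rose by 2.59 ± 0.51 in BL6 (adjusted p = 0.00046) and by 1.30 ± 0.49 in MRL (adjusted p = 0.0415). The BL6 value of Apoe was 1.79 without operated replicate 4, which held 756 CPM against 114 to 241 CPM in the other 3. The MRL call of Apoe was lost in 7 of the 16 fits without 1 sample (adjusted p at most 0.116) and with library totals alone (adjusted p = 0.0772). Macrophages and adipocytes express Apoe strongly, and their markers are given above; their part in this rise was not tested. Npc1, which exports cholesterol from lysosomes, fell instead, by 1.07 ± 0.28 in BL6 (adjusted p = 0.0033) and by 1.48 ± 0.28 in MRL (adjusted p = 0.00173).

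The branches that share precursors with Sc5d's route gave different pictures. In the isoprenoid branch, which makes prenyl groups, dolichol and ubiquinone tails, 5 of 12 passed in BL6 (1 higher, 4 lower) and 1 in MRL (lower), with medians of -0.10 and -0.14, both counts under the 67.9% and 45% of all genes. Pggt1b, a subunit of a geranylgeranyl transferase, fell in BL6 by 1.52 ± 0.25 log2 units (SE, adjusted p = 0.000137 by edgeR) and had a log2 fold change of -0.44 in MRL (adjusted p = 0.154). The MRL value was -0.69 without operated MRL replicate 4 and then passed (adjusted p = 0.0229). Among fatty acid synthesis genes, which SREBP-1 controls, 10 of 12 analysed of 13 passed in BL6 (7 higher, 3 lower) and 9 in MRL (6 higher, 3 lower), with medians of 1.26 and 0.82, beside the same shares of all genes. Fads2 was not analysed here. Srebf1, the gene of SREBP-1, had means of 53.7 CPM without surgery and 40.8 CPM after it in BL6. In MRL its means were 66.4 and 42.4 CPM, and its groups overlapped in both strains. Its fall in MRL passed with DESeq2 (log2 fold change -0.66, adjusted p = 0.0115). The edgeR call there was lost in 4 of the 16 fits without 1 sample and with library totals alone (adjusted p = 0.128). Elovl5, a fatty acid elongase, rose by 1.64 ± 0.19 in BL6 (adjusted p = 1.43e-05) and by 1.33 ± 0.18 in MRL (adjusted p = 0.000465). Acly, which makes cytosolic acetyl-CoA, rose by 1.19 ± 0.24 and 0.93 ± 0.24 (adjusted p = 0.000566 and 0.00733). Gpam, the first acyltransferase of glycerolipid synthesis, fell by 4.23 ± 0.66 in BL6 (adjusted p = 8.32e-05) and by 2.07 ± 0.60 in MRL (adjusted p = 0.0123). The MRL value was -3.51 without operated replicate 4, which held 72.5 CPM against 7.31 to 11.1 CPM in the other 3. Adipocytes express the fatty acid genes strongly, and the part of the higher adipocyte markers in these rises was not tested.

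The genes whose pattern was most like that of Sc5d were found by the root mean square difference of centred log2 CPM over the 16 samples, where 0 is an identical pattern. Among 9626 genes of at least 5 CPM the median difference was 0.624. The 5 closest were Gpr155, a lysosomal membrane protein, at 0.143, Lmtk2, a membrane-anchored kinase, at 0.171, H6pd, a dehydrogenase of the endoplasmic reticulum, at 0.172, Eif2ak1, the heme-regulated kinase of translation, at 0.173, and Amigo1, an adhesion protein, at 0.178. Gpr155 had group means of 22.4 CPM (unoperated) and 7.88 CPM (operated) in BL6 and of 12.6 and 8.30 CPM in MRL, the same rank order as Sc5d but for the 2 operated groups. None of the 5 is an enzyme of cholesterol synthesis. Of the chosen genes Fdft1 was the closest, at 0.300 and rank 355, followed by Hmgcs1 at 0.477 and rank 2698, Cyp51 at 0.747 and rank 6232 and Srebf2 at 0.777 and rank 6529. Hsd17b7 stood at 0.210 but had a mean under 5 CPM and was outside the ranking. The likeness includes the BL6 samples that chose Sc5d, and the 16 samples fall into 4 groups, so it is a description.

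Total counts were 24323862 to 43552964 per sample and lower after surgery in BL6 (26469749 to 31094642) than before it (33679319 to 43552964). Mitochondrially encoded genes took 10.97% to 14.2% of counts in unoperated samples and 17.4% to 23.8% in operated BL6. In operated MRL replicates 1 to 4 they took 24.9%, 20.1%, 21.7% and 11.8%. Their part in the results was not tested beyond the fit without them, in which Sc5d in MRL kept its call. Operated MRL replicate 4 also had 292 CPM of summed endothelial markers, where replicates 1 to 3 had 588 to 726. Its Sc5d (15.4 CPM) and adipocyte sum (1469 CPM) lay within the ranges of operated BL6. Why this sample differed was not tested.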

How the data were processed

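Messenger RNA of rotator cuff muscle was measured in 16 samples. The values of the table the authors deposited read as raw counts, whole numbers with 1 column per sample. A second deposited table by the authors gives log2 fold changes, p-values and false discovery rates for 4 comparisons, per the file headers; only its log2 fold changes are quoted. The submitters' processing notes name FastQC, STAR, edgeR and the build mm10; versions, annotation and strand setting are not given in the sources used here.

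From the counts, R 4.3.3 with edgeR 4.0.16 was used: TMM scaling, filterByExpr at a minimum count of 10 (11709 of 11710 genes kept), and quasi-likelihood fits over all 16 samples in which each group has its own mean. P-values were adjusted by Benjamini-Hochberg over all genes tested, and a gene passed at an adjusted p under 0.05. A prior count of 2 entered log2 CPM. An effect is given with its standard error. Alternatives used DESeq2 1.42.0, other scalings and filters, a replicate block and the loss of each sample. The test was checked on simulated data with far fewer changed genes than passed here, so that check does not cover all conditions of these data.

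Groups come from the strain and surgery labels. The labels do not say that replicates came from separate animals, so p-values measure the spread between these samples. Of 24 pairs of replicates none agreed within sampling noise. Replicate numbers are shared by the groups, and same-numbered samples showed no clear shared deviation, which does not exclude pairing. At 24323862 to 43552964 counts, 3 counts are 0.0689 to 0.123 CPM; this floor covers counting error only.

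The members and gene lists were chosen with earlier results of these data known. Genes are named as members, as genes of those lists, or as the 5 genes of at least 5 CPM with a pattern most like that of Sc5d; within lists, the genes named were chosen after their values were seen, and so were Ctsb, Vps51, Sdccag8, Gm31520, Gm48342 and Gm6781, which overlap or resemble a named gene. Gene IDs were matched to GENCODE M21 (11708 of 11710 found, 11690 with the same symbol). Near copies are transcripts aligned over at least 200 bases at 90% identity or more. Promoters are RefSeq windows of GRCm38.p6, found for 4 of the 7 genes. Results for some genes of these lists are not reported here.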

Additional observations from a re-analysis of the deposited data

Results flagged for a closer look

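Among 68 groups of 4 samples (17 genes in 4 groups), 2 held a sample that stood apart by Dixon's test at the 95% level, and chance alone flags about 1 group in 20. Acat2 was 3.36 CPM in unoperated MRL replicate 1, against 2.71 to 2.76 in the other 3 samples. Hsd17b7 was 6.85 CPM in unoperated BL6 replicate 2, against 8.22 to 8.39. The effect of surgery on Mvd differed between the strains by -1.55 log2 units (interaction term in edgeR, adjusted p = 0.0461), with the limits given above.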

How the results depend on the processing

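The fall of Sc5d in MRL kept its direction and call under every alternative, from -0.77 to -0.70 on the log2 scale, and from -0.81 to -0.71 without 1 sample. Of 16 enzymes, those passing numbered 8 to 11 in BL6 and 4 to 7 in MRL without 1 sample, and 2 to 4 between unoperated strains; these counts include the chosen genes, so those with BL6 samples are descriptions. For strain by surgery, 0 passed with library totals alone, without mitochondrial genes and with the replicate block, 2 by DESeq2, and 0 to 2 without 1 sample. Between operated strains 0 passed with library totals alone and with only the groups compared, and 0 to 2 without 1 sample. Over all genes, strain by surgery gave 29 calls, 14 with library totals alone, 2 with the replicate block, 250 by DESeq2 and 1 to 69 without 1 sample. Library totals alone moved the median log2 fold change of all genes to 0.18 in BL6 and 0.15 between unoperated strains. On that scale Sc5d was -1.22 in BL6 and -0.56 between unoperated strains. Hmgcs1 was -0.43 and Srebf2 0.60 in BL6. Each of these descriptive values moved by more than 1 SE and kept its sign. The cause of these changes was not tested.

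Signs turned only for values that did not pass. With library totals alone Fdft1 was 0.0089 between unoperated and 0.063 between operated strains, and Srebf2 in MRL was 0.023; with genes of at least 5 CPM Srebf2 in MRL was 0.00999. Without 1 sample, Cyp51 between operated strains ranged from -0.39 to 0.15, Fdft1 there from -0.18 to 0.11 and for strain by surgery from -0.035 to 0.25, Hmgcs1 between unoperated strains from -0.023 to 0.062, Sqle in MRL from -0.30 to 0.046, and Srebf2 from -0.10 to 0.28 between operated strains and -0.079 to 0.012 in MRL. Of 1998 recomputed values of 84 gene effects, 1844 kept direction and side of the threshold (or, untested, moved by less than 1 SE), 114 no longer passed, 15 newly passed, 6 moved by more and 19 turned sign.

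Same-numbered samples had a mean correlation of 0.0427 over 24 pairs (-0.474 to 0.453). Samples of different number had -0.00918 over 72 pairs (-0.560 to 0.536). No clear pairing showed, but this check cannot exclude one. With the block, 10 enzymes passed in BL6 and 6 in MRL. With genes of at least 5 CPM, 7 passed in BL6. Sqle, at 11 to 200 counts, is the least precise of the chosen genes.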
